A study of Mus musculus with 16 samples.

Results

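The genes described are the families that steer growing axons and vessels and sort cells at tissue borders: ephrins and their Eph receptors, semaphorins with their plexin and neuropilin receptors, Slits with Robo receptors, and netrins. They were taken by gene symbol alone (the numbered genes of the Epha, Ephb, Efna, Efnb, Sema, Plxn, Nrp, Robo, Slit and Ntn series), whatever their levels, and number 63 of the 31663 entries of the table. There were 16 mouse libraries in 8 groups of 2. Induced pluripotent stem cells (iPSC, marked with GFP) and the cells labelled TSC or TSCC (marked with RFP, here TSC) were grown on their own, as colonies of 1 cell type, or mixed, when both colonies attached to each other, green iPSC part to red TSC part. Each of these 4 sources was left untreated or given BMP4 during the final 24 hours of a culture collected at day 3. That makes untreated and treated groups of iPSC alone, of TSC alone, of the iPSC part and of the TSC part. All 8 shared a serum-containing medium supplemented with FGF4 (12.5 ng/ml) and heparin (500 ng/ml), and wells coated with 5% Matrigel. Each library came from 1 picked colony, or from 1 part of 1 structure whose parts were separated by hand, and was made with Smart-seq2, a method for small amounts of RNA. The labels give no strain and no BMP4 dose. They do not say whether the 2 libraries of a group had separate origins, so p-values here may reflect technical spread only.

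Ephrins are ligands held in the membrane, so they signal between touching cells. Ephrin-A ligands, anchored by a lipid, bind mostly EphA receptors, and ephrin-B ligands, which span the membrane, bind mostly EphB receptors. Most of the receptors are active tyrosine kinases, and the ligands can signal back into their own cell. Contact often ends in repulsion, which keeps neighbouring cell groups apart in the hindbrain and the somites. Semaphorins act through plexins, and most secreted class 3 members need neuropilins as co-receptors. Slits repel cells through Robo receptors, and netrins attract or repel through Dcc and Unc5 receptors.

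The values are FPKM, fragments scaled by transcript length and mapped total. Read depth is unknown, and the libraries listed 10504 to 11419 genes at 1 FPKM or more. Pearson's r between the replicates of a group, across genes, was 0.929 to 0.973 (genes are not independent), and 2084 genes differed more than 2-fold between the replicates of untreated TSC alone, against 454 in untreated iPSC alone. Pou5f1, a central pluripotency factor, stood at 49.5 to 326 FPKM in the 8 libraries of iPSC origin and at 0.0335 to 13.2 in the 8 of TSC origin. Its highest value of TSC origin was in replicate 2 of the untreated TSC part, where 6 of 6 iPSC markers reached 1 FPKM and Tdgf1, another pluripotency gene, stood at 22.5 FPKM, against 4 of 6 and 0.261 in replicate 1. The summed level of the 6 was 339 to 1015 FPKM in iPSC origin and 178 to 744 in TSC origin, most of the latter from Utf1. Utf1 stood at 97.6 to 541 FPKM in iPSC origin and 148 to 724 in TSC origin. Zfp42 (2.47 to 18.9 against 9.42 to 27.4) and Sox2 (0.281 to 3.34 against 0 to 11.0) reached higher values in TSC origin. Counts of the 6 are therefore weak signs of iPSC RNA. Elf5, a trophoblast stem cell factor, stood at 50.4 FPKM in replicate 2 of the treated iPSC part and at 0 to 0.413 in the other 7 libraries of iPSC origin. That library had 9 of 9 TSC markers at 1 FPKM or more, and its replicate 1 had 7. The 9 summed to 125 to 800 FPKM in iPSC origin and 520 to 6251 in TSC origin, both maxima mostly Krt8 and Krt18. Below, these are called the 2 libraries with markers of the other lineage, and results that rest on them are given without them as well. They are not alone in holding such markers. Replicate 2 of the treated TSC part also had 6 of 6 iPSC markers at 1 FPKM or more (Tdgf1 at 4.49 FPKM). Both libraries of treated iPSC alone had 8 of 9 TSC markers, replicate 2 with the highest sum of iPSC origin (800 FPKM) and Elf5 at 0.283. These 3 were left out singly and not together. Markers of the primitive streak and mesoderm, a list of 5 genes led by T, summed to 57.4 to 571 FPKM in iPSC origin and to 1.19 to 22.0 in TSC origin. In untreated TSC alone, the trophoblast stem cell factor Eomes stood at 0.219 and 0.0844 FPKM, against 11.2 to 33.8 in the other 6 libraries of TSC origin. Fewer cells with an RNA and less of it per cell cannot be told apart in such libraries.

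Of the 63 guidance genes, 31 reached 1 FPKM in at least 2 libraries and were tested. Another 26 stayed below 1 FPKM in all 16 libraries, among them all 3 netrins listed (Ntn1, Ntn4 and Ntn5, each at most 0.462 FPKM) and Nrp1, a co-receptor for class 3 semaphorins. The remaining 6 reached 1 FPKM in 1 library each: Sema3a, Sema3b, Sema4g, Sema5a, Sema5b and Plxnd1. Of the 63, 14 reached 5 FPKM in any library. The highest single values were those of Efna4 (45.0 FPKM), Plxnb2 (37.6) and Epha1 (25.8).

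**Figure D1:**
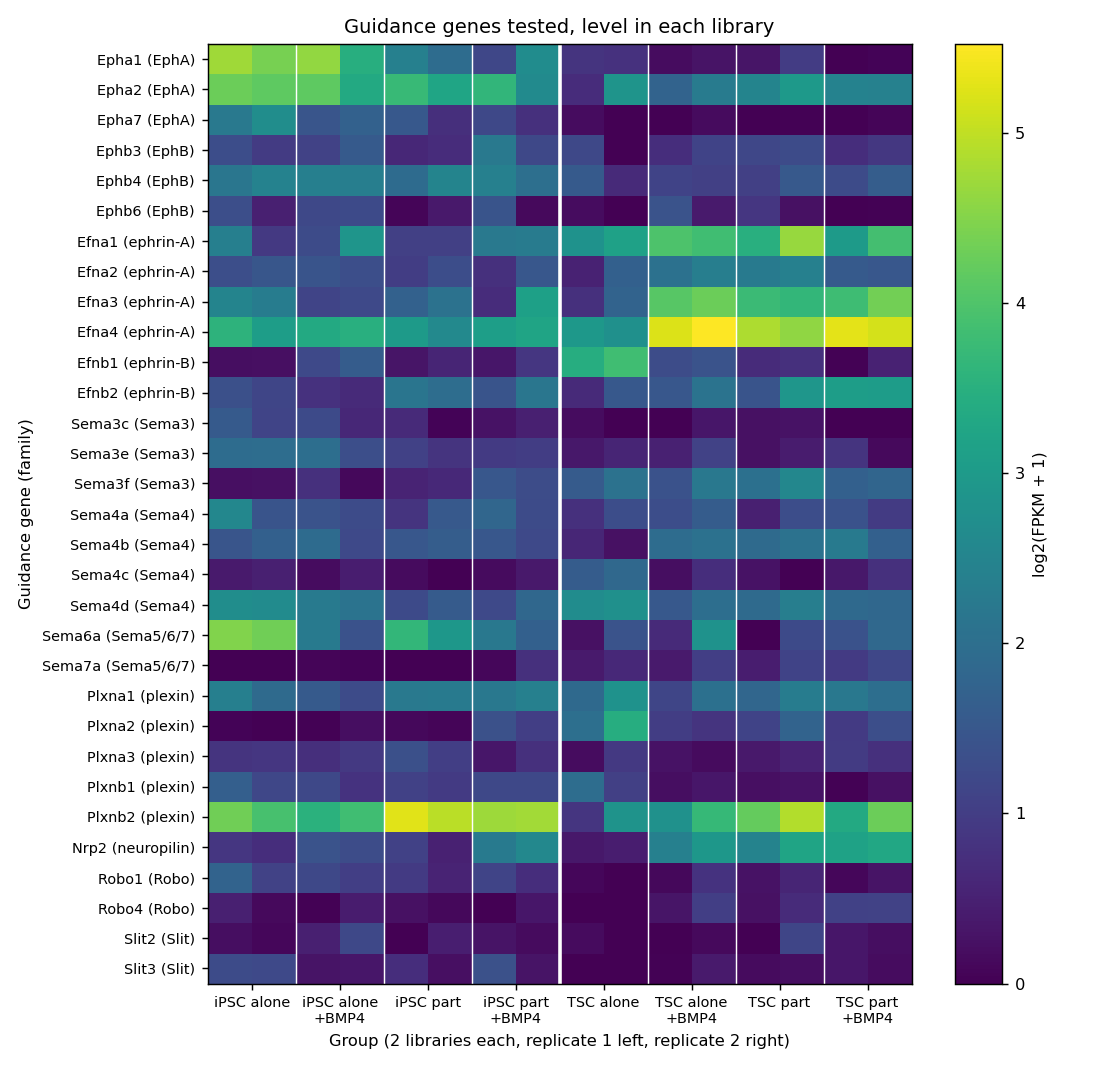
Level of the 31 tested guidance genes (rows, with family) as log2(FPKM + 1) in the 16 libraries (columns, 2 per group), with the iPSC groups left of the thick line. Epha1, Epha2 and Epha7 are brighter on the left, and Efna3 and Efna4 on the right except in untreated TSC alone, where Efna4 stood at 6.65 and 5.85 FPKM.

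Averaged over the 4 matched pairs of groups (8 libraries of TSC origin against 8 of iPSC origin), 21 of the 31 tested guidance genes (67.7%) differed by lineage at a limma adjusted p under 0.05, where 48.8% of all 13406 genes tested did. Of these, 10 were higher in TSC origin (background 24.8%) and 11 lower (background 24%). All 4 tested ephrin-A ligands were among the higher genes and all 3 tested EphA receptors among the lower ones. The 31 were those that passed a filter on low values, and 9 of them reached 1 FPKM in libraries of 1 lineage only. These 9 (Epha1, Epha7, Plxna3, Robo1, Robo4, Sema3c, Sema4c, Sema7a and Slit3) passed the filter through the lineage where they were higher. Neither their part of the counts nor their single lineage calls below are therefore support for a difference. Each change below is on the log2(FPKM + 1) scale with its SE, which makes the fold of low genes look smaller than it is. Of the 21 calls, 19 held in every alternative tried. That of Efna2 was lost when any 1 of 11 of the 16 libraries was left out, with a pseudocount of 0.1 and without the filter, and that of Sema4c with a pseudocount of 0.1. Within single pairs of groups, 14 of the 31 (45.2%) had the same direction in all 4, against 46.4% of all genes, and 10 of the 31 (32.3%) passed in 2 or more pairs, against 20.5%.

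Among ephrin-A ligands, Efna4 was the most abundant. In the untreated parts it stood at 27.7 and 23.4 FPKM in TSC and 7.07 and 5.09 in iPSC, and in the treated parts at 38.0 and 34.7 in TSC and 7.59 and 8.31 in iPSC. Both TSC libraries lay above both iPSC libraries in each case (1.92 ± 0.25, limma adjusted p = 0.000624 untreated, 2.06 ± 0.25, limma adjusted p = 0.000495 treated). Treated cells alone had the same order, with 36.6 and 45.0 FPKM in TSC and 9.21 and 10.1 in iPSC (1.96 ± 0.25, limma adjusted p = 0.000328). Untreated TSC alone stood at 6.65 and 5.85 FPKM, below the 10.9 and 7.37 of untreated iPSC, and did not pass (-0.46 ± 0.25, limma adjusted p = 0.165). The 3 calls held in every alternative.

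Efna3 was likewise low in untreated TSC alone. It stood at 12.7 and 11.6 FPKM in the untreated TSC part and 2.28 and 3.23 in the iPSC part, and at 12.9 and 19.4 against 0.631 and 7.81 in treated parts. Treated cells alone stood at 16.1 and 18.5 in TSC against 1.18 and 1.34 in iPSC (3.02 ± 0.58, limma adjusted p = 0.00413), a call that held in every alternative. Untreated TSC alone stood at 0.707 and 2.38 FPKM, below the 4.64 and 3.97 of untreated iPSC, and did not pass (-1.14 ± 0.58, limma adjusted p = 0.145). The call between untreated parts (1.82 ± 0.58, limma adjusted p = 0.0496) was lost when any 1 of the 4 libraries was left out (limma adjusted p 0.131 to 0.202) and after quantile normalization (0.0685). The call between treated parts (2.16 ± 0.58, limma adjusted p = 0.0345) was lost without replicate 1 of the treated iPSC part (0.94, limma adjusted p = 0.261) and without either replicate of the treated TSC part (limma adjusted p = 0.0913 and 0.17). The higher value of the treated iPSC part belongs to the library with Elf5, and without the 2 libraries with markers of the other lineage the difference was 3.37.

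Efna1, a ligand that can also be shed from the cell surface, stood at 10.3 and 24.6 FPKM in the untreated TSC part and 1.07 and 1.06 in the iPSC part (3.04 ± 0.57, limma adjusted p = 0.00366). This call held in every alternative. Over all libraries Efna1 ranged from 5.99 to 24.6 FPKM in TSC origin (median 11.7) and from 0.880 to 6.38 in iPSC origin (median 2.55), with 1 iPSC library above the lowest of TSC origin. Efna2 was lower, at 0.436 to 4.27 FPKM in TSC origin and 0.708 to 1.84 in iPSC origin. Efna5 was at most 0.867 FPKM and not tested.

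Efna1, Efna3 and Efna4 lie side by side on chromosome 3, on the minus strand (GENCODE M21, GRCm38), with gaps of 32757 and 10425 bases. Windows from 250 bases before to 50 after a start are shown because these 3 neighbours are the ephrins with the largest lineage differences averaged over the 4 pairs of groups. They are from RefSeq (GRCm38.p6), 5′ to 3′ on the minus strand, with capitals for a match to the TFAP2 motif GCCNNNGGC.
Efna1, chr3:89280902-89281201: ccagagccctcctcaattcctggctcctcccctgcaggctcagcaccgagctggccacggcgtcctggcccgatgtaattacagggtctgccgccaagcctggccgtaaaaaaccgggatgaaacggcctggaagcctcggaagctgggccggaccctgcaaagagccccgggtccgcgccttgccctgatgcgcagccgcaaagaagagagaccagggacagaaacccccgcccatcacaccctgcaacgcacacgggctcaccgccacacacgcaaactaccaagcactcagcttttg
Efna3, chr3:89322890-89323189: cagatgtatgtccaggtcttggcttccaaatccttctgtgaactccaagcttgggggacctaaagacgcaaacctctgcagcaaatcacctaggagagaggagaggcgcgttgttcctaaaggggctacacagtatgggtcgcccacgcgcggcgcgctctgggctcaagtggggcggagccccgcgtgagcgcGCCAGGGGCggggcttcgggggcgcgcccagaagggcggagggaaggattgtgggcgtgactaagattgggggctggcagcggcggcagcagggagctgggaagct
Efna4, chr3:89337979-89338278: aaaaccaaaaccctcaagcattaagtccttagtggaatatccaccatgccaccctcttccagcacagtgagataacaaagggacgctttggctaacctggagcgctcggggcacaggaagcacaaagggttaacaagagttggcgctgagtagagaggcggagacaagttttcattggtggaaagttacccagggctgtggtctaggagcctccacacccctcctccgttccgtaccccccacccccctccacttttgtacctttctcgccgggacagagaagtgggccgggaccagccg
Both strands were searched for GCCNNNGGC, which reads the same on either, for the octamer ATTTGCAT and for the T-box motif AGGTGTGA. The Efna3 window shown holds GCCNNNGGC 1 time. The other windows of these genes, including 1 further start each of Efna1 and Efna3, hold none of the 3 motifs. Of the 71 windows of the 55 guidance genes with a RefSeq window, 22.5% held GCCNNNGGC, 0% the octamer and 1.41% the T-box motif, against 16.6%, 1.74% and 1.28% of all 32851 windows. Such matches of letters are not evidence of binding.

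EphA receptors had the opposite order. Epha1 ranged from 1.24 to 25.8 FPKM in the 8 libraries of iPSC origin (median 7.74) and from 0 to 0.960 in the 8 of TSC origin (median 0.226), with no overlap (-2.75 ± 0.24, limma adjusted p = 1.92e-06). It is the 1 guidance gene that passed in each of the 4 pairs of groups. Epha1 passed the filter through iPSC origin only, so its lineage calls and its lack of overlap are no support for a difference. Untreated, it stood at 25.8 and 19.8 FPKM in iPSC alone against 0.770 and 0.731 in TSC alone (-3.75 ± 0.48, limma adjusted p = 0.000104), and at 4.28 and 2.85 in the iPSC part against 0.234 and 0.960 in the TSC part (-1.54 ± 0.48, limma adjusted p = 0.0437). The call between untreated parts was lost when any 1 of the 4 libraries was left out (limma adjusted p 0.0636 to 0.25), with a replicate block (0.0549) and without the filter (0.103). Treated parts stood at 1.24 and 5.44 FPKM in iPSC against 0 and 0.0405 in TSC (-1.90 ± 0.48, limma adjusted p = 0.0247). Without replicate 2 of the treated iPSC part, the library with Elf5, that difference was -1.14 (limma adjusted p = 0.143), and without either replicate of the treated TSC part the limma adjusted p was 0.116 and 0.0985. Zyx overlaps Epha1 on the opposite strand and stood at 44.9 to 84.7 FPKM in iPSC origin and 17.1 to 96.6 in TSC origin. Over the lineages Zyx was lower in TSC origin, as was Epha1 (-0.66 ± 0.20, limma adjusted p = 0.016). Its part in the Epha1 values was not tested.

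Epha7 also separated the lineages without overlap, at 0.687 to 5.55 FPKM in iPSC origin and 0 to 0.144 in TSC origin (-1.48 ± 0.15, limma adjusted p = 6.12e-06). As with Epha1, it passed the filter through iPSC origin only, so the same limit holds. Epha2, a receptor of ephrin-A1 in many epithelia, was the EphA gene with the most RNA in TSC origin (0.616 to 6.98 FPKM). It stood at 18.6 and 16.8 FPKM in untreated iPSC alone against 0.616 and 6.28 in TSC alone (-2.45 ± 0.57, limma adjusted p = 0.00507). Between untreated parts it stood at 12.1 and 8.43 in iPSC against 4.66 and 6.98 in TSC and did not pass (-0.73 ± 0.57, limma adjusted p = 0.43). The test of whether its lineage difference was another in parts than alone did not pass either (1.37 ± 0.57, limma adjusted p = 0.172). The other 6 EphA receptors (Epha3, Epha4, Epha5, Epha6, Epha8 and Epha10) were below 1 FPKM in all 16 libraries.

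**Figure D2:**
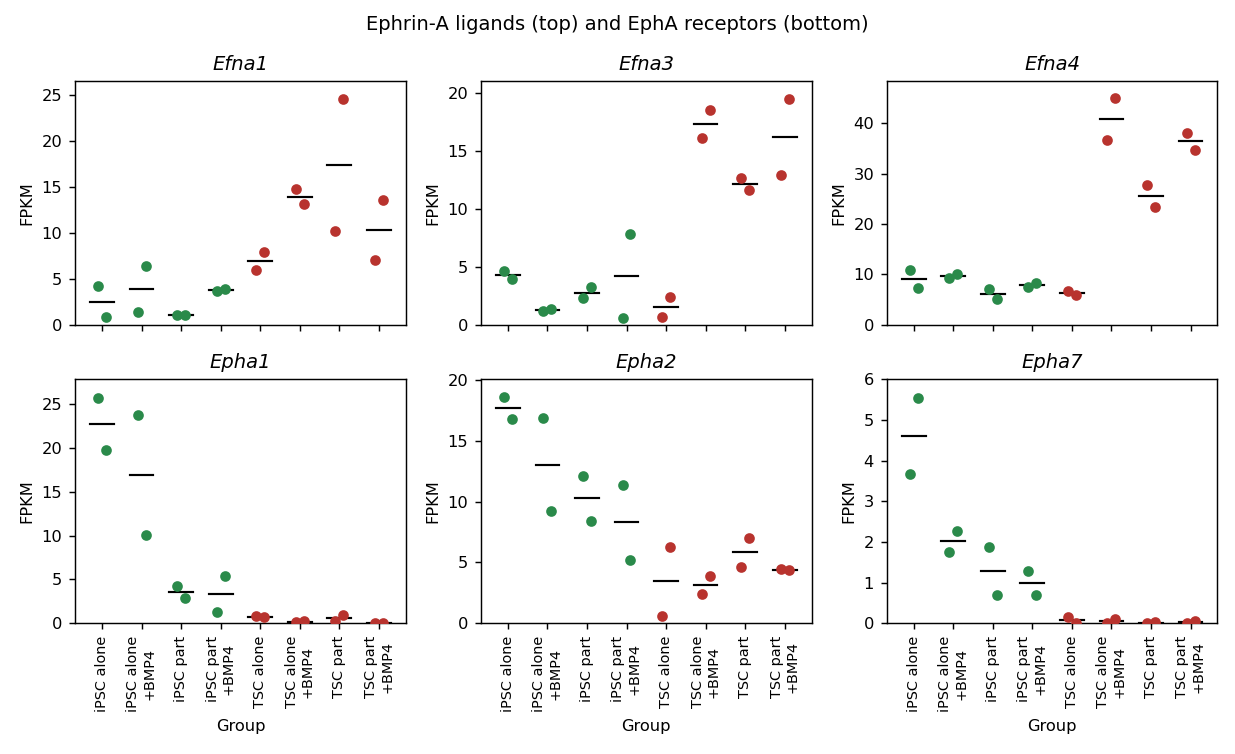
FPKM of 3 ephrin-A ligands (top) and 3 EphA receptors (bottom) in 8 groups, with points for libraries (green iPSC origin, red TSC origin) and bars for means of 2 libraries. Efna4 lies at 23.4 to 45.0 in 6 TSC libraries and at 6.65 and 5.85 in untreated TSC alone.

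Summed over families, the 9 EphA genes held 11.9 to 49.2 FPKM in libraries of iPSC origin and 2.22 to 8.55 in those of TSC origin, without overlap. The 5 ephrin-A genes held 10.9 to 22.4 FPKM in iPSC origin. In TSC origin they held 13.8 and 18.4 in untreated TSC alone and 54.4 to 80.7 in the other 6 libraries. The ratio of ligand to receptor RNA was 0.316 to 1.88 in iPSC origin and 2.52 to 25.2 in TSC origin. The highest ratio of iPSC origin was that of the library with Elf5, and the other 7 lay at or below 0.924. These sums of RNA are a description and carry no test.

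**Figure D3:**
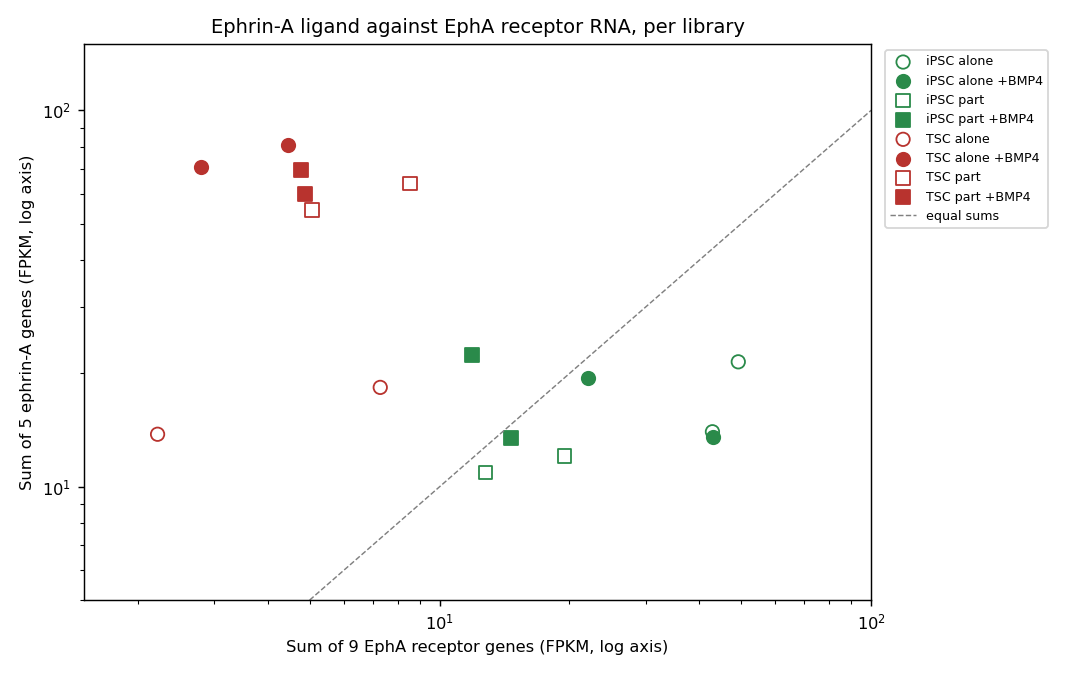
Summed FPKM of the 5 ephrin-A genes against that of the 9 EphA genes, both on log axes, 1 point per library (green iPSC origin, red TSC origin, circles alone, squares parts, filled with BMP4). All 8 TSC points lie above the line of equal sums, at ratios of 2.52 or more, and 7 of the 8 iPSC points lie below it.

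The ephrin-B and EphB genes were lower in level. Ephb4, the venous receptor of ephrin-B2, stood at 2.82 to 4.60 FPKM in iPSC origin (median 4.18) and 0.574 to 2.08 in TSC origin (median 1.27), without overlap (-1.05 ± 0.17, limma adjusted p = 0.000294). Efnb1, a ligand needed for sorting cells in the developing skull, stood at 9.83 and 13.3 FPKM in untreated TSC alone and at 0.0254 to 2.03 in the other 14 libraries. Its difference between untreated TSC and iPSC alone (3.43 ± 0.29, limma adjusted p = 9.89e-06) held in every alternative, while the untreated parts stood at 0.612 and 0.704 in TSC against 0.247 and 0.496 in iPSC (0.28 ± 0.29, limma adjusted p = 0.567). Averaged over the lineages Efnb1 was called higher in TSC origin (0.83, limma adjusted p = 0.000466), though TSC was higher in only 2 of the 4 pairs. With BMP4 its TSC means were lower, at 1.56 against 1.68 FPKM alone and 0.237 against 0.547 in parts. Efnb2, the arterial ligand of Ephb4, stood at 7.36 and 7.24 FPKM in the treated TSC part, at 1.71 and 6.42 in the untreated TSC part, at 0.573 to 3.31 in the 4 libraries of TSC alone and at 0.571 to 3.50 in iPSC origin, and did not pass over the lineages (0.57 ± 0.23, limma adjusted p = 0.0535). Ephb3 (at most 3.68 FPKM) and Ephb6 (at most 1.70) did not pass. Ephb1, Ephb2 and Efnb3 were below 1 FPKM in all libraries.

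Of 20 semaphorins, 9 were tested and 6 differed over the lineages (background 48.8%). Sema6a, a transmembrane semaphorin that binds A-type plexins, stood at 21.4 and 19.0 FPKM in untreated iPSC alone against 0.194 and 1.66 in TSC alone (-3.57 ± 0.65, limma adjusted p = 0.00107), a call that held in every alternative. The untreated parts stood at 11.6 and 6.63 in iPSC against 0.0113 and 1.35 in TSC (-2.67 ± 0.65, limma adjusted p = 0.014), a call lost without replicate 1 of the iPSC part (limma adjusted p = 0.102) and without replicate 1 of the TSC part (0.133). With BMP4 the lineages did not differ past the threshold in parts (-0.33 ± 0.65, limma adjusted p = 0.809) or alone (-0.09 ± 0.65, limma adjusted p = 0.95). Treated iPSC stood at 3.78 and 1.61 FPKM alone and 3.66 and 2.22 in the part, below both libraries of the untreated group in each case, but the effect of BMP4 did not pass in iPSC alone (-2.58 ± 0.65, limma adjusted p = 0.266).

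Sema3f, a secreted repellent that acts through Nrp2, had the other order, at 1.62 to 4.87 FPKM in TSC origin and 0.0821 to 1.82 in iPSC origin (1.26 ± 0.17, limma adjusted p = 6.21e-05). It stood at 3.12 and 4.87 in the untreated TSC part against 0.459 and 0.559 in the iPSC part (1.71 ± 0.34, limma adjusted p = 0.00496), and this call held in every alternative. Sema3e, the ligand of Plxnd1, was lower in TSC origin, at 0.0993 to 1.13 FPKM against 0.785 to 3.00 (-0.87 ± 0.16, limma adjusted p = 0.000657), and so was Sema3c, at most 1.97 FPKM. Sema4c and Sema7a were higher in TSC origin, at no more than 2.62 and 1.25 FPKM. Sema4d, a ligand of B-type plexins and the Sema4 gene with the highest mean, stood in iPSC origin at 5.54 and 5.34 FPKM in untreated cells alone, 3.87 and 3.32 in treated cells alone, 1.35 and 1.99 in the untreated part and 1.31 and 2.58 in the treated part. In TSC origin it stood at 5.43 and 5.84 FPKM in untreated cells alone, 1.89 and 2.98 in treated cells alone, 2.74 and 4.17 in the untreated part and 2.69 and 2.62 in the treated part. The lineages overlapped and Sema4d, Sema4a and Sema4b did not pass over them.

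Among the receptors of semaphorins, Plxnb2, a B-type plexin, had the most RNA and was present in both lineages. In iPSC origin it stood at 19.1 and 14.1 FPKM in untreated cells alone, 10.5 and 13.1 in treated cells alone, 37.6 and 30.0 in the untreated part and 25.4 and 25.9 in the treated part. In TSC origin it stood at 0.811 and 6.18 FPKM in untreated cells alone, 5.93 and 11.9 in treated cells alone, 17.7 and 28.7 in the untreated part and 9.23 and 18.4 in the treated part. It was lower in TSC origin over all pairs (-1.04 ± 0.27, limma adjusted p = 0.0062), and between single pairs it passed in untreated cells alone (-2.27 ± 0.54, limma adjusted p = 0.00549), where leaving out replicate 1 of TSC alone gave -1.28 (limma adjusted p = 0.0507).

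Nrp2, the co-receptor of Sema3f, stood in iPSC origin at 0.826 and 0.659 FPKM in untreated cells alone, 1.67 and 1.44 in treated cells alone, 1.08 and 0.412 in the untreated part and 3.79 and 4.94 in the treated part. In TSC origin it stood at 0.281 and 0.350 FPKM in untreated cells alone, 4.29 and 6.56 in treated cells alone, 4.56 and 8.40 in the untreated part and 8.08 and 8.90 in the treated part. The untreated parts did not overlap (2.08 ± 0.32, limma adjusted p = 0.00138), and this call held in every alternative. Nrp2 also marks some endothelial cells. The summed level of 5 endothelial markers was 0.252 to 1.23 FPKM in iPSC origin and 0.513 to 4.79 in TSC origin. Most of the highest sums came from Kdr and Pecam1, and Kdr was highest in the treated TSC part (2.98 and 3.51 FPKM). Cdh5 was at most 0.118 FPKM and Tie1 at 0 in all 8 libraries of TSC origin. The part of such cells in the Nrp2 values was not tested. Plxna2, a receptor of class 6 semaphorins, stood at 3.07 and 9.88 FPKM in untreated TSC alone against 0.0372 and 0 in iPSC alone (2.71 ± 0.39, limma adjusted p = 0.000253). Plxnb1, the receptor of Sema4d, was lower in TSC origin over all pairs (-0.61 ± 0.15, limma adjusted p = 0.00565). Plxna1 stood at 1.22 to 6.07 FPKM in all 16 libraries and did not differ past the threshold (0.00 ± 0.19, limma adjusted p = 0.992).

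**Figure D4:**
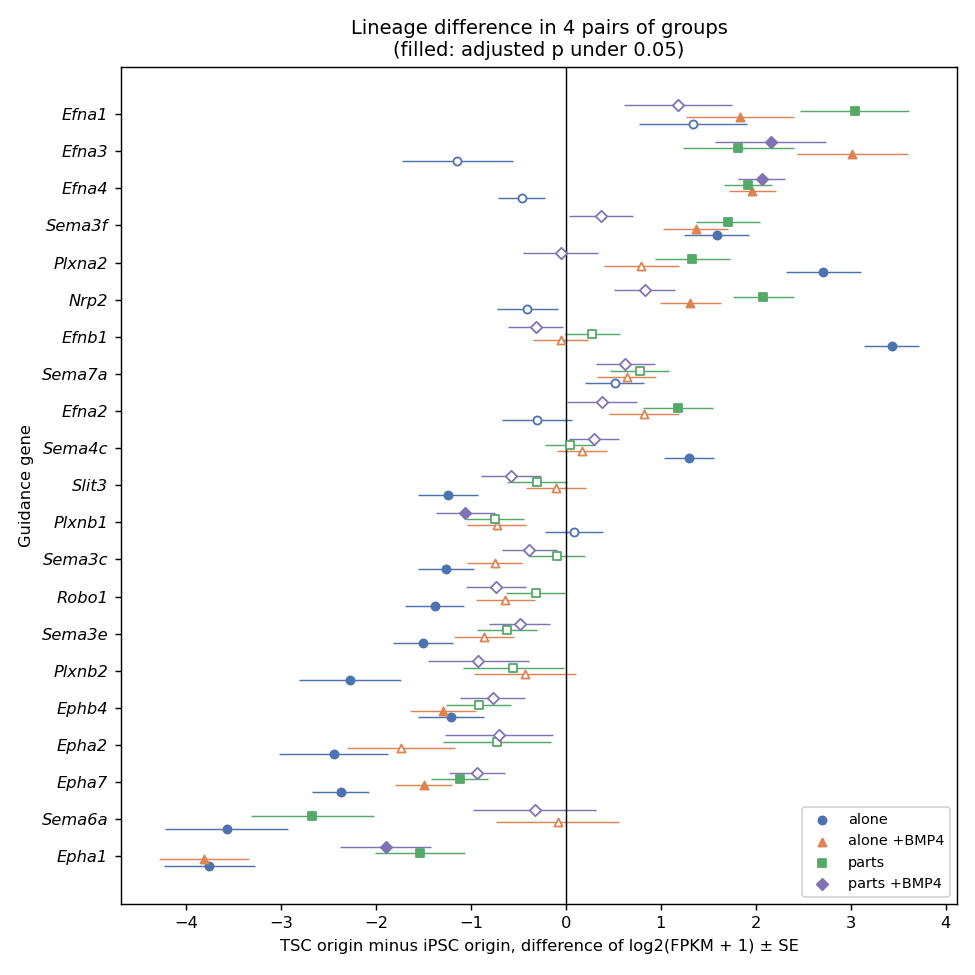
Lineage difference (TSC origin minus iPSC origin) of the 21 guidance genes called over all pairs, as difference of log2(FPKM + 1) ± SE, in 4 pairs of groups, filled where the limma adjusted p was under 0.05. Epha1 lies left of 0 and filled in all 4 pairs, and Efna4 right of 0 in all but untreated cells alone (-0.46).

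Robo and Slit genes were low throughout. Robo1, a receptor of Slits, stood at 0.471 to 2.40 FPKM in iPSC origin (median 1.08) and 0 to 0.757 in TSC origin (median 0.149), lower in TSC origin (-0.77 ± 0.16, limma adjusted p = 0.00136). Slit3, a ligand of Robo receptors, stood at 1.40 and 1.32 FPKM in untreated iPSC alone and was listed at 0 in both libraries of untreated TSC alone. Robo4 (at most 1.12 FPKM) and Slit2 (at most 1.30) did not pass over the lineages. Robo2, Robo3 and Slit1 were below 1 FPKM in all libraries.

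Of 14 genes for receptors and cofactors of netrins and RGM proteins, 6 were tested, and over the lineages 1 was higher and 2 were lower in TSC origin (50%, background 48.8%, median change 0.08, against -0.01 for all genes). Unc5b, a repulsive netrin receptor, stood at 15.5 and 27.9 FPKM in the untreated TSC part against 6.30 and 5.60 in the iPSC part (1.65 ± 0.35, limma adjusted p = 0.00703). It was higher in the untreated part than alone in iPSC (1.63 ± 0.35, limma adjusted p = 0.0131) and in TSC (1.60 ± 0.35, limma adjusted p = 0.00845). Flrt3, a membrane protein that binds Unc5 receptors, stood at 0.190 to 0.919 FPKM in TSC origin and 1.59 to 3.80 in iPSC origin, without overlap (-1.20 ± 0.16, limma adjusted p = 5.09e-05). The 2 lower genes, Flrt3 and Dscaml1, reached 1 FPKM in iPSC origin only. They passed the filter through the lineage where they were higher, so their calls are no support for a difference. Of 18 tested effectors of Eph and ephrin signalling, 7 were higher and 1 lower in TSC origin (44.4%, background 48.8%, of which 24.8% higher and 24% lower, median 0.23). Of 20 tested effectors of semaphorins and plexins, 9 were higher and 6 lower (75%, same background, median 0.33), and of 13 of Slits and Robos, 8 were higher and 2 lower (76.9%, same background, median 0.46). Among the higher effectors of semaphorins and plexins, Arhgef12, Farp2, Met and Mical2 reached 1 FPKM in TSC origin only. Their part of the count is likewise no support for a difference. The kinase Pak1, which acts downstream of Rac, stood at 8.52 to 36.2 FPKM in iPSC origin and 0.699 to 3.66 in TSC origin (-2.88 ± 0.18, limma adjusted p = 1.88e-07), and it passed in each of the 4 pairs of groups.

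Between the untreated parts of assembled structures, 10 of the 31 tested guidance genes passed (32.3%, background 16.9%). In the TSC part 7 were higher (Efna1, Efna2, Efna3, Efna4, Nrp2, Plxna2 and Sema3f, background 11.1%) and 3 lower (Epha1, Epha7 and Sema6a, background 5.89%). Efna1, Efna4, Nrp2 and Sema3f are the 4 that held in every alternative. Efna2 and Plxna2 were lost when any 1 of the 4 libraries was left out (limma adjusted p 0.111 to 0.209 and 0.0594 to 0.213). Epha7 was lost without replicate 1 of the iPSC part (limma adjusted p = 0.2) and without replicate 1 or 2 of the TSC part (0.108 and 0.0792). Without the 2 libraries with markers of the other lineage, 7 passed. Between treated parts 4 passed (12.9%, background 10.1%), of which Efna3 and Efna4 were higher (background 5.32%) and Epha1 and Plxnb1 lower in the TSC part (background 4.82%). Efna4 alone of these held in every alternative. Plxnb1 (-1.06 ± 0.31, limma adjusted p = 0.0473) was lost when any 1 of the 4 libraries was left out (limma adjusted p up to 0.214).

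In untreated cells grown alone, 15 of 31 passed (48.4%, background 36.4%), 4 higher in TSC (background 16.2%) and 11 lower (background 20.2%). The higher genes were Efnb1, Plxna2, Sema3f and Sema4c. Of the 15 calls 10 held in every alternative that could test them. Ephb4 and Sema4b were each lost without replicate 2 of iPSC alone and without replicate 2 of TSC alone (limma adjusted p 0.102 to 0.136 and 0.0668 to 0.0817), and Robo1 and Sema3c without replicate 1 of iPSC alone (0.0561 and 0.0533). Sema4c passed the filter only through the 2 libraries of untreated TSC alone, so its calls against that group follow from the filter, and without either library it could not be tested. In treated cells alone, 8 of 31 passed (25.8%, background 18.2%), with Efna1, Efna3, Efna4, Nrp2 and Sema3f higher in TSC (background 7.62%) and Epha1, Epha7 and Ephb4 lower (background 10.6%). The Efna1 call (limma adjusted p = 0.0419) was lost without replicate 1 of treated iPSC alone (1.02, limma adjusted p = 0.348) and with either replicate of treated TSC alone left out (0.15 and 0.105). Ephb4 was lost when any 1 of the 4 libraries was left out, Nrp2 without either iPSC library or replicate 2 of TSC, and Sema3f without replicate 2 of either group (limma adjusted p up to 0.108, 0.0864 and 0.136).

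Set against untreated iPSC alone, the untreated iPSC part was lower in 4 of 31 guidance genes and higher in 0 (12.9%, background 11.8%, of which 9.74% lower and 2.08% higher). Epha1 stood at 4.28 and 2.85 FPKM in the part against 25.8 and 19.8 alone (-2.39 ± 0.48, limma adjusted p = 0.00999), and Sema4d at 1.35 and 1.99 against 5.54 and 5.34 (-1.28 ± 0.30, limma adjusted p = 0.0189). Epha7 stood at 1.88 and 0.687 against 3.67 and 5.55 (-1.33 ± 0.30, limma adjusted p = 0.0161). Sema3c stood at 0.577 and 0.0336 against 1.97 and 1.19 (limma adjusted p = 0.0434), but it reached 1 FPKM only in iPSC alone. Having passed the filter through the side where it was higher, its call and its part of the count are no support for a difference. For these 4 genes both libraries of the part lay below both of cells alone, which adds no support because the genes were picked by their calls. The streak and mesoderm markers moved with this comparison, from a sum of 60.8 and 57.4 FPKM alone to 269 and 303 in the part, with 3 and 3 of 5 at 1 FPKM or more alone and 4 and 3 in the part. T led that rise, from 44.6 and 39.6 FPKM to 237 and 257, while Lefty2 stood at 15.0 and 16.2 alone and 8.15 and 18.7 in the part. Pou5f1 stood at 326 and 219 FPKM alone and 71.5 and 80.9 in the part. Nanog did not fall with Pou5f1, at 27.5 and 37.4 FPKM alone and 34.7 and 33.4 in the part. The 6 iPSC markers summed to 955 and 979 FPKM alone and 581 and 635 in the part. The part of these in the 4 calls was not tested. None of the 4 calls held when each library was left out in turn. Each was lost without replicate 1 of iPSC alone, without replicate 2 of iPSC alone and without replicate 2 of the iPSC part, and that of Sema4d also without replicate 1 of the iPSC part, with limma adjusted p up to 0.109 for Epha1, 0.177 for Epha7, 0.314 for Sema3c and 0.111 for Sema4d. With BMP4, Epha1 alone passed (1 of 31, 3.23%, background 5.72%, of which 4.84% lower and 0.88% higher), at 1.24 and 5.44 FPKM in the part against 23.8 and 10.0 alone (-2.12 ± 0.48, limma adjusted p = 0.0308). Leaving out replicate 1 or 2 of treated iPSC alone ended this call (limma adjusted p = 0.215 and 0.106) as did leaving out replicate 1 of the treated part (0.162).

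Set against untreated TSC alone, the untreated TSC part differed in 10 of 31 guidance genes (32.3%, background 19.2%), 6 higher (background 9.01%) and 4 lower (background 10.2%). TSC alone with BMP4 differed from it in 8 of 31 (25.8%, background 12.1%), 4 higher (background 6.39%) and 4 lower (background 5.74%). Both comparisons share the libraries of untreated TSC alone, so their values are set side by side and are not independent. Efna4 rose in the part (1.87 ± 0.25, limma adjusted p = 0.000579) and with BMP4 (2.52 ± 0.25, limma adjusted p = 0.0001). Nrp2 rose from 0.281 and 0.350 FPKM in the part (2.46 ± 0.32, limma adjusted p = 0.000546) and with BMP4 (2.27 ± 0.32, limma adjusted p = 0.00127). Sema4b, a transmembrane semaphorin, stood at 0.502 and 0.186 FPKM in untreated TSC alone, at 2.76 and 3.26 in the part (1.58 ± 0.31, limma adjusted p = 0.00498) and at 2.85 and 3.17 with BMP4 (1.59 ± 0.31, limma adjusted p = 0.00706). Efnb1 stood at 0.612 and 0.704 FPKM in the part (-2.91 ± 0.29, limma adjusted p = 0.000152) and at 1.44 and 1.68 with BMP4 (-2.28 ± 0.29, limma adjusted p = 0.000652), below both libraries of untreated TSC alone. The calls of these 4 genes held in both comparisons in every alternative. Efnb1, however, reached 1 FPKM only in cells grown alone. Its call in the part, and its share of that count, are therefore no support for a difference.

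Most other calls against untreated TSC alone were lost in some alternative. Plxnb2 rose in the part (2.71 ± 0.54, limma adjusted p = 0.00516), a call lost without the 2 libraries with markers of the other lineage (2.38, limma adjusted p = 0.0527), and did not pass with BMP4 (1.39 ± 0.54, limma adjusted p = 0.111). Sema4c stood at 2.06 and 2.62 FPKM in untreated TSC alone, 0.202 and 0 in the part and 0.161 and 0.659 with BMP4, given as values because of the filter. Plxna2 was lower in both. Without replicate 2 of untreated TSC alone it differed by -0.59 in the part (limma adjusted p = 0.274) and by -1.11 with BMP4 (0.064). It was also lost in the part without either of its replicates (0.228 and 0.0516) and with BMP4 without replicate 1 of treated TSC alone (0.0568). Plxnb1 was lower in both, and without replicate 1 of untreated TSC alone it differed by -0.80 in the part (limma adjusted p = 0.105) and by -0.78 with BMP4 (0.137). It was also lost without either replicate of the part (0.078 and 0.0621) or of treated TSC alone (0.115 and 0.0513). Efna3 rose with BMP4 (2.93 ± 0.58, limma adjusted p = 0.00758) in every alternative. Efna2 and Efna3 rose in the part, and both calls were lost without replicate 1 of untreated TSC alone (limma adjusted p = 0.239 and 0.0778), or when either replicate of the part was omitted (up to 0.131 and 0.0722). Untreated TSC alone is also the group with the most genes differing between replicates and with Eomes below 1 FPKM. Its 9 TSC markers summed to 6251 and 3587 FPKM against 1804 and 1674 in the part and 1601 and 1695 with BMP4. Most of its sum came from Krt8 (2932 and 1367 FPKM) and Krt18 (2947 and 1705). Tfap2c and Gata3 were also higher there than in both other groups. Elf5 had the order of Eomes, at 5.51 and 11.6 FPKM against 116 and 159 in the part and 153 and 130 with BMP4. The part of these in the values was not tested.

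**Figure D5:**
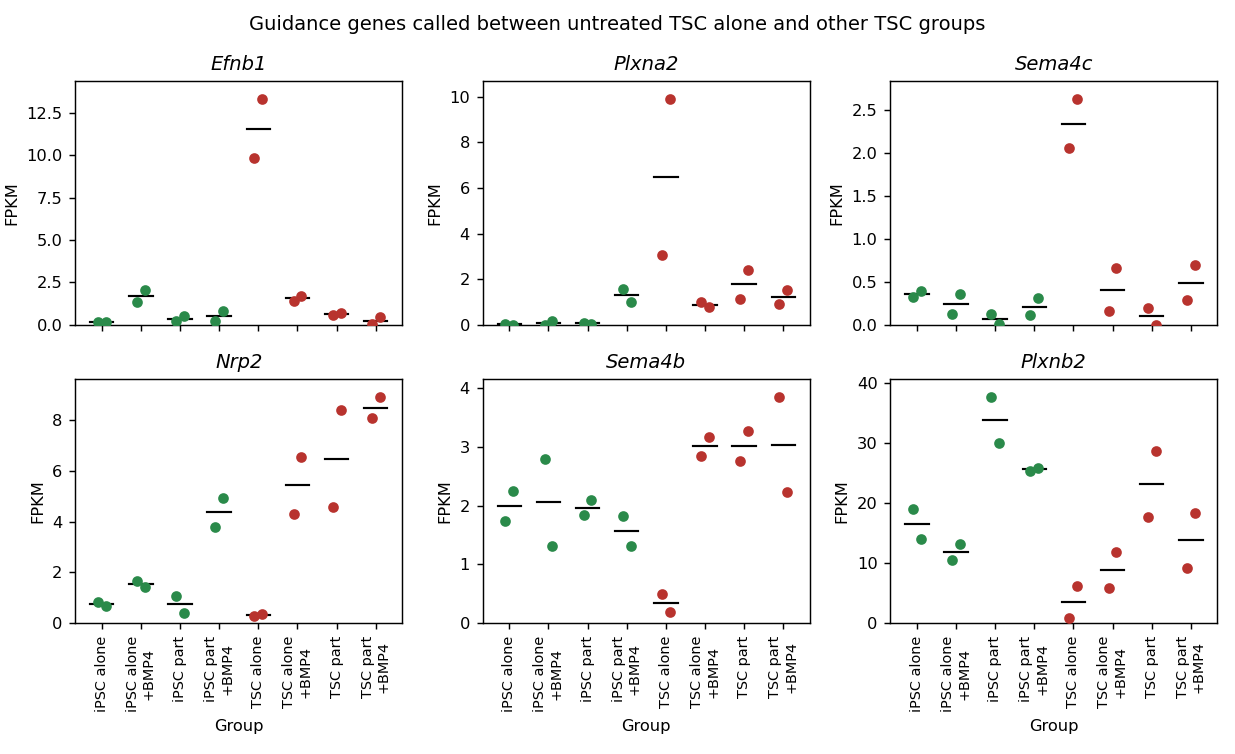
FPKM of 6 guidance genes in 8 groups, with points for libraries (green iPSC origin, red TSC origin) and bars for means of 2 libraries. Efnb1 is at 9.83 and 13.3 in untreated TSC alone and at 0.0254 to 2.03 elsewhere, while Nrp2 is at 0.281 and 0.350 there and at 4.29 to 8.90 in the other TSC groups.

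In the other comparisons no guidance gene passed with limma. For BMP4, 0 of 31 passed in iPSC alone (background 0.0597%, with 0.0224% higher and 0.0373% lower). Likewise 0 of 31 passed in the iPSC part (background 0.00746%) and 0 of 31 in the TSC part (background 0.5%, with 0.373% higher and 0.127% lower). Between the treated TSC part and treated TSC alone, 0 of 31 passed (background 0.298%, with 0.157% higher and 0.142% lower). Nrp2 in the iPSC part stood at 3.79 and 4.94 FPKM with BMP4 against 1.08 and 0.412 without, and did not pass (1.64 ± 0.32, limma adjusted p = 0.24). Efnb2 stood at 7.36 and 7.24 FPKM in the treated TSC part against 1.81 and 3.31 in treated TSC alone, and did not pass (1.25 ± 0.45, limma adjusted p = 0.228).

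Whether assembly changed the lineage difference itself was tested as an interaction averaged over BMP4, and 3 of 31 passed (9.68%, background 4.15%, of which 2.94% positive and 1.22% negative). For Efna4 the difference of TSC over iPSC origin was larger in parts than alone (1.24 ± 0.25, limma adjusted p = 0.0215). For Efnb1 it was smaller in parts (-1.71 ± 0.29, limma adjusted p = 0.0117), and for Epha1 the deficit of TSC origin was smaller in parts (2.07 ± 0.48, limma adjusted p = 0.0348). Efnb1 held in every alternative. It passed the filter only through cells grown alone, with at most 0.841 FPKM in parts, so this call is no support for a difference. Efna4 was lost without any 1 of 5 libraries: replicate 1 of untreated iPSC alone, either of treated iPSC alone, replicate 2 of the untreated iPSC part or replicate 1 of the treated TSC part (limma adjusted p up to 0.063). Epha1 was lost without any 1 of 11 libraries (up to 0.0897), with a pseudocount of 0.1 (0.186), without the filter (0.0721) and after quantile normalization (0.0599). Quantile normalization moved the median difference of all genes from 0.19 to 0.04 here, from 0.12 to 0.00 between untreated parts and from -0.19 to 0.00 between the untreated iPSC part and iPSC alone, and no call named above changed direction with it.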

How the data were processed

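The deposited table gives FPKM, computed by the authors, for 31663 entries in 16 libraries, 12 symbols occurring more than once. The submitters' processing notes name CASAVA, TopHat2, mm9 and hg19 without roles. The program behind FPKM, the annotation and any strand setting were not given in the sources used here. Of the 31 guidance genes tested, 14 overlap a gene on the opposite strand (GENCODE M21), with which reads may be shared.

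Values were taken as log2(FPKM + 1) for the 13406 genes that reached 1 FPKM in 2 or more libraries. They were fitted in limma 3.58.1 (R 4.3.3) as 8 group means with 8 residual degrees of freedom and an intensity trend. The 14 comparisons were two-sided, with Benjamini-Hochberg adjustment over all genes and a threshold of 0.05. All single pairs of groups have n = 2 libraries per group, and the mean lineage difference has 8 per lineage. Depth is unknown, so values carry no counting interval.

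Levels are given by library for members past the threshold whose higher group averaged 5 FPKM or more, up to 10 per direction, and for the most abundant of each family. Members and gene lists were chosen with earlier results of these data known. Alternatives tried were no filter, a pseudocount of 0.1, quantile normalization, a replicate block, omission of each library, and omission of the 2 libraries with markers of the other lineage. The fit was tested on simulated data.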

Additional observations from a re-analysis of the deposited data

Results flagged for a closer look

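In 3 guidance genes the lineage difference was itself different between assembled parts and cells alone, by an interaction in limma with Benjamini-Hochberg adjustment over all genes. The values were 1.24 ± 0.25, adjusted p = 0.0215 for Efna4, -1.71 ± 0.29, adjusted p = 0.0117 for Efnb1 and 2.07 ± 0.48, adjusted p = 0.0348 for Epha1. For Efna4 and Efnb1, untreated TSC alone stood away from the other 6 libraries of TSC origin, at 6.65 and 5.85 FPKM against 23.4 to 45.0 for Efna4 and at 9.83 and 13.3 against 0.0254 to 1.68 for Efnb1. For Epha1, the 4 libraries of iPSC alone stood at 10.0 to 25.8 FPKM and the 4 of iPSC parts at 1.24 to 5.44, without overlap. Epha1 passed the filter through iPSC origin only, with 0 to 0.960 FPKM in TSC origin. Efnb1 passed it only through cells grown alone, with 0.0254 to 0.841 FPKM in parts.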

How the results depend on the processing

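Each library was left out in turn, the lone sample of its group being assumed to vary like the other groups. The number of guidance genes past the threshold was then 20 to 23 for the mean lineage difference (21 with all libraries), 12 to 14 in untreated cells alone (15), 4 to 6 in treated cells alone (8), 4 to 6 between untreated parts (10), 1 to 3 between treated parts (4), 0 to 3 for the iPSC part against iPSC alone (4), 0 to 1 for the same with BMP4 (1), 6 to 9 for the TSC part against TSC alone (10), 5 to 8 for BMP4 in TSC alone (8) and 1 to 4 for the interaction (3). It stayed at 0 in the 4 comparisons in which 0 passed. Without the filter, 6 passed between untreated parts, 2 between treated parts, 7 for the iPSC part against iPSC alone, 0 for the same with BMP4, and 1 for BMP4 in iPSC alone. With a pseudocount of 0.1, 2 passed for the iPSC part against iPSC alone. Without the 2 libraries with markers of the other lineage, 6 passed for the TSC part against TSC alone. The cause of these changes was not tested. No called gene changed direction in any alternative run. Libraries with the same replicate number did not deviate together (correlation of their deviations -0.18 to 0.12 over 28 pairs of groups, over 0.1 in 2), and no label says that a number marks a shared preparation. With a replicate block the counts were 22 for the mean lineage difference and 9 between untreated parts, and as without it in the other comparisons.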

Other observations

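The genes around Efna1, Efna3 and Efna4 on chromosome 3 were looked at after the values of these ephrins were seen. Of 16 tested protein-coding neighbours within 100000 bases (GENCODE M21, GRCm38), 5 were higher and 6 lower in TSC origin over all pairs of groups, at a limma adjusted p under 0.05 (background 24.8% and 24%). Adam15, a membrane protease gene next to Efna4, had a mean of 27.4 FPKM in TSC origin against 8.75 in iPSC origin (1.56 ± 0.31, limma adjusted p = 0.00126). Slc50a1, a sugar transporter gene next to Efna1, had a mean of 50.5 FPKM in TSC origin against 17.4 in iPSC origin (1.33 ± 0.29, limma adjusted p = 0.00198). Thbs3, a thrombospondin gene, had the other direction, with a mean of 2.13 FPKM in TSC origin against 13.1 in iPSC origin (-2.41 ± 0.19, limma adjusted p = 8.23e-07). Between untreated parts, 1 of the 16 was higher in TSC (Zbtb7b, background 11.1%) and 1 lower (Thbs3, background 5.89%).

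Markers of fibroblasts, endoderm and neural cells were low. The summed level of 7 fibroblast markers was at most 3.40 FPKM, with Col1a1 at most 0.588, and that of 5 endoderm markers at most 3.50. The 3 neural markers analysed here had a sum of at most 3.76 FPKM.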
